A study of Mus musculus with 2 samples.

Results

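The genes described here encode the proteasome. They were all genes on the array whose symbol is Psma, Psmb, Psmc, Psmd, Psme, Psmf or Psmg plus a number, each read by its brightest probeset with 1 gene symbol. There were 47 such genes among 18193 genes on the array, and 46 of them were among the 9097 genes in the upper 50% of mean log2 signal, which were kept for counting. The 46 comprised 4 genes of the immune proteasome (Psmb8, Psmb9, Psmb10 and Psme1) and 42 other members. The fifth immune gene, Psme2, had no probeset with 1 symbol and is not a member here.

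Both groups were RAW264.7 cells, a line of mouse macrophages transformed by Abelson leukemia virus. The empty-vector group had been infected with the retroviral vector MSCV and the miR-155 group with MSCV encoding mir-155. Puromycin at 7 µg/ml selected the infected cells, single clones were grown by limiting dilution, and each group was the pooled RNA of 5 clones on 1 Affymetrix array. The stated aim was to identify mRNAs under the control of miR-155. No array was replicated, so differences carry no p-value and describe this pair of arrays alone. A change in a few clones, in all clones, in the number of cells of a kind or in the RNA per cell cannot be told apart in pooled RNA.

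The proteasome degrades proteins that carry ubiquitin chains. Its 20S core is a stack of rings of alpha and beta subunits, and its proteolytic sites lie on the beta 1, beta 2 and beta 5 subunits (Psmb6, Psmb7 and Psmb5). A 19S cap of ATPases and non-ATPases recognises, unfolds and feeds the substrate. Interferon-gamma induces substitutes for the catalytic subunits, namely Psmb9 for beta 1, Psmb10 for beta 2 and Psmb8 for beta 5, together with the PA28 activator subunits Psme1 and Psme2. Proteasomes with these subunits favour the production of peptides for MHC class I, and macrophages are among the cells that hold them.

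The microRNA carried by the vector is miR-155, and it is shown because every difference below is between cells with and without this vector-encoded microRNA. The mature 5′ strand in the RefSeq-based table (GRCm38.p6, chr16:84714143-84714165, + strand) is printed with its seed, bases 2 to 8, in capitals.
mmu-miR-155-5p: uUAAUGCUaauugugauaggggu

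Promoters of 3 immune members that were higher in the miR-155 array are shown so that their letters can be compared. They run from 250 bases before to 50 after the start, from RefSeq on GRCm38.p6. Capitals mark matches, on either strand, to the ISRE core of interferon-stimulated genes (GAAA, any 2 bases and GAAA again), to the GAS letters TTCNNNGAA bound by STAT proteins or to the CCAAT box. Psmb9 lies at chr17:34187281-34187580 (- strand), Psmb8 at chr17:34197945-34198244 (+ strand) and Psme1 at chr14:55578244-55578543 (+ strand).
Psmb9: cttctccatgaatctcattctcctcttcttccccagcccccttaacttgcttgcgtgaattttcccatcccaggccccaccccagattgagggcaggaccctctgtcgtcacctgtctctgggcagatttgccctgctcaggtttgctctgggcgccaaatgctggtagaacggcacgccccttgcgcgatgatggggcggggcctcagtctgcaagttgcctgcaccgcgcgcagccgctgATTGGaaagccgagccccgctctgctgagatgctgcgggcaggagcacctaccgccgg
Psmb8: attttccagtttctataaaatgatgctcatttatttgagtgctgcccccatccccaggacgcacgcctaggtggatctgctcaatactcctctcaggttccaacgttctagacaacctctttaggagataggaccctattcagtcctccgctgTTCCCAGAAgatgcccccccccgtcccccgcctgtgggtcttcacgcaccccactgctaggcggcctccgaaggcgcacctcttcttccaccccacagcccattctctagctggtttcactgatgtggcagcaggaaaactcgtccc
Psme1: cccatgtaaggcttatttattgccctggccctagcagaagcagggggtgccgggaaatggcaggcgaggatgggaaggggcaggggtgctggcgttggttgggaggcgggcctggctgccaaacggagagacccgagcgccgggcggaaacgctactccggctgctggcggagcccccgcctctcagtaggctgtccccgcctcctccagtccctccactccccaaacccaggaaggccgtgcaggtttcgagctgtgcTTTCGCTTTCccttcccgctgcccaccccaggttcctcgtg

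The capital letters differ from gene to gene. Psmb9 has only a CCAAT box, read on the opposite strand from position -8, Psmb8 only a GAS match from position -97, and Psme1 only an ISRE core on the opposite strand from position 10. The window of Psmb10 held none of the 3 motifs. The ISRE core occurred in 3.44% of all 32851 promoter windows, the GAS letters in 8.3% and the CCAAT box in 37.4%. Among the 37 windows of the other members, 4 held an ISRE core (Psmb3, Psmd4, Psmd9 and Psmg4), 2 a GAS match and 13 a CCAAT box. The 37 windows cover 35 genes, including Psmb11, which the signal filter left out. The 8 members with no window included Psmb7, Psmb1 and Psmb2. The letters TGANNNNGC, which resemble the antioxidant element bound by NRF1 and NRF2, were in 21 of these 37 windows, in 4 of the 6 windows of Psme2 and the immune members (those of Psmb8, Psmb9 and Psme2) and in 41.3% of all windows. In the windows printed, they start at position -60 of Psmb9 and 24 of Psmb8. They are not in capitals, and overlap none of the capital matches. A match is a description of the letters, not a bound site.

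In the miR-155 array the 4 immune members read higher, by 1.21-fold to 2.22-fold, and none of the 42 other members differed by 1.5-fold. Of all 9097 genes kept, 3822 read higher in that array. The immune member with the smallest ratio, Psmb10, was nearer to 0 than Psme4, Psmg3 and Psmd8 of the others. The log2 ratio is the miR-155 signal over the empty-vector signal on a log2 scale, above 0 where the miR-155 array reads higher. Where signals are given in pairs, the empty-vector array comes first. Its yardstick for single genes is the local SD, a robust SD of the ratio among the 500 genes nearest in signal, which does not measure the variation between clones or cultures. The median ratio was 0.64 for the immune members, −0.041 for the other members and −0.048 for all genes kept. At least 1.5-fold higher were 2 of the 46 members, both immune, against 5.32% of all genes kept. At least 1.5-fold lower were 0 of the 46, against 5.99%. At least 2-fold higher was 1 member, Psmb9, against 1.92%, and 0 were as much lower, against 1.43%. Among the 5522 genes kept within the signal range of the other members the 1.5-fold shares were 2.72% higher and 2.73% lower. After centring the median of all probesets on 0, the shares over all genes kept were 6.78% higher and 4.75% lower.

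**Figure D1:**
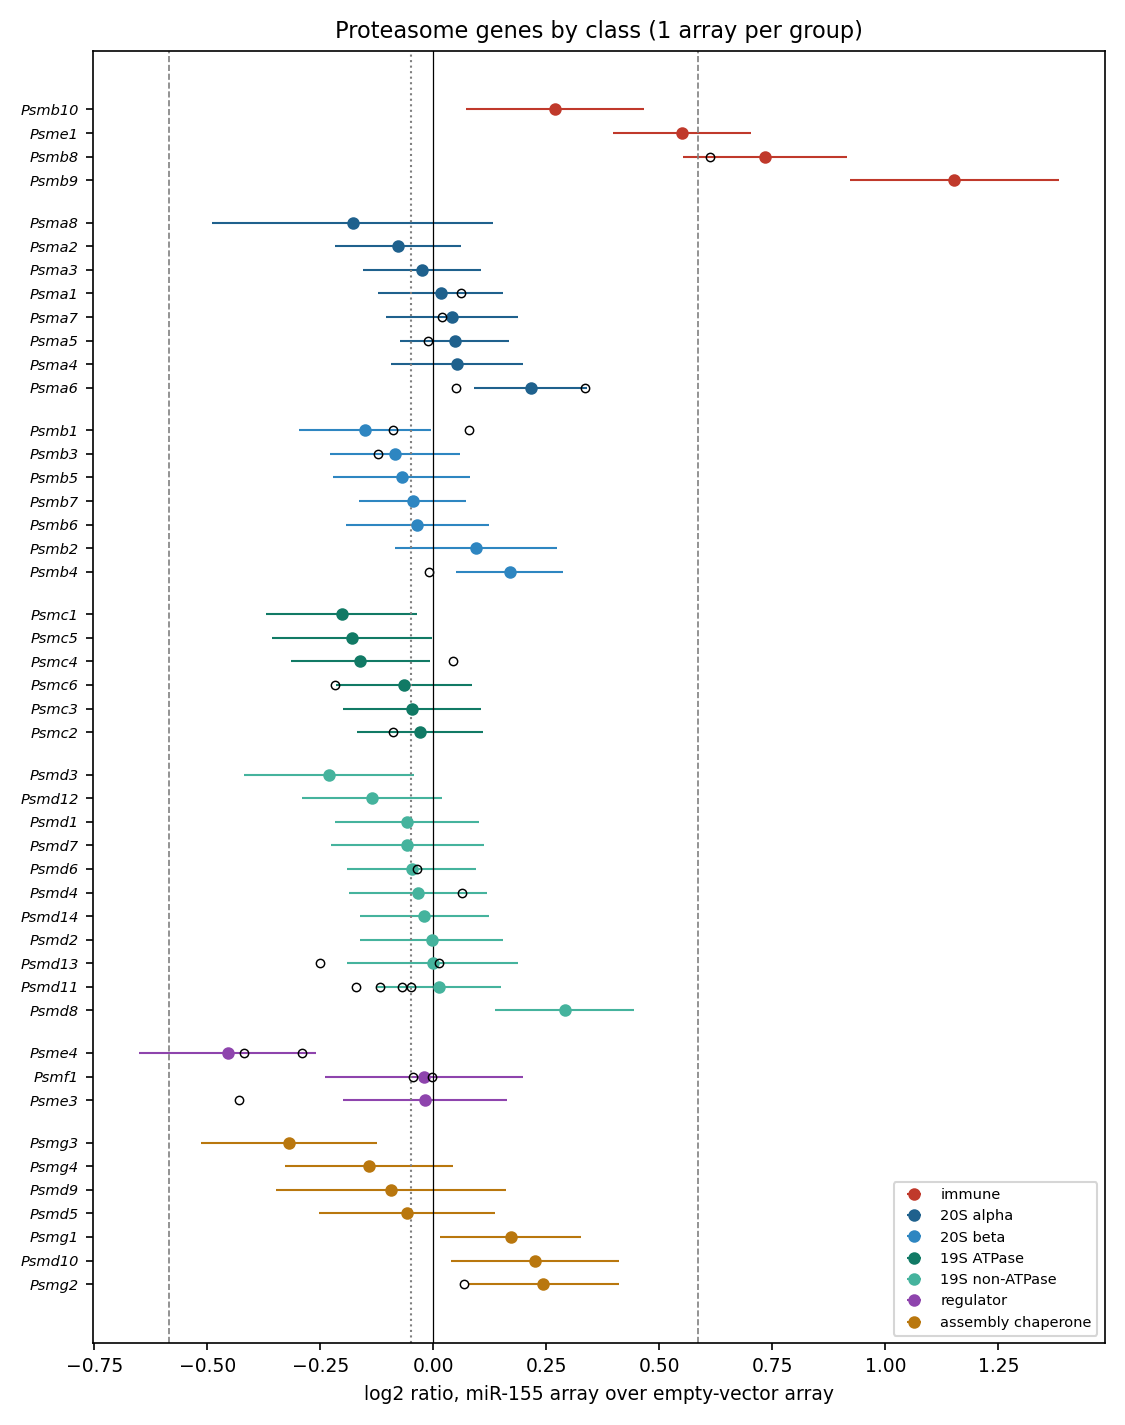
Log2 ratio of the miR-155 over the empty-vector array for the 46 proteasome genes kept, by class; filled points are the brightest probesets, bars 1 local SD to each side, open circles further probesets with both readings at or above 25.8. Dashed lines mark 1.5-fold and the dotted line the median of all genes kept (−0.048); Psmb8 and Psmb9 alone lie beyond a dashed line by their filled points.

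**Figure D2:**
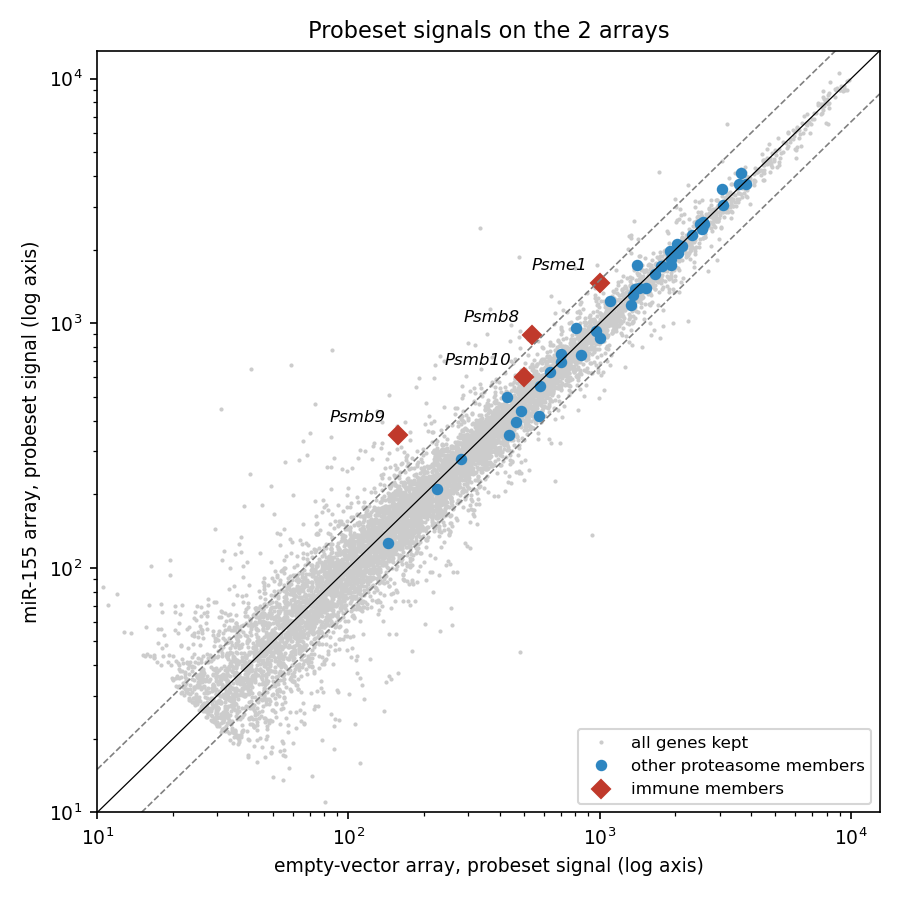
Probeset signal on the miR-155 array against the empty-vector array, both on log axes, for all 9097 genes kept (grey), the 42 other proteasome members (blue) and the 4 immune members (red). The solid line is equality and the dashed lines 1.5-fold; the blue points follow the solid line and Psmb9 and Psmb8 lie above the upper dashed line.

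Psmb9, the substitute for beta 1, had the highest ratio of the family. Its signal was 158 without and 351 with miR-155. This is 2.22-fold higher (log2 ratio 1.15, local SD 0.23), and 129 of the 9097 genes kept had a higher ratio. No further probeset measured it.

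Psmb8, the substitute for beta 5, read 539 and 896. It was 1.66-fold higher (log2 ratio 0.73, local SD 0.18), with 325 genes above it. Its further probeset, much dimmer at 35.8 and 54.7, gave 0.61.

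Psme1, the alpha subunit of PA28, which opens the gate of the core, read 1001 and 1465. It was 1.46-fold higher (log2 ratio 0.55, local SD 0.15), just short of 1.5-fold. After centring the median of all probesets on 0, or after quantile normalization, Psme1 passed 1.5-fold. The count of members at least that much higher became 3 of the 46 in each case. The share of all genes kept was then 6.78% with centring and 6.25% with quantile normalization.

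Psmb10, the substitute for beta 2, had the smallest ratio among the immune members. Its signals were 499 and 602, or 1.21-fold higher (log2 ratio 0.27, local SD 0.20), and 1348 genes had a higher ratio. This lies inside the range of the other members, of which Psmd8 read higher at 0.29. The ratios of Psmb8, Psmb9 and Psme1 lay 4.41, 5.12 and 4.06 local SDs above the median of genes of like signal, and that of Psmb10 1.70.

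The constitutive counterparts of the immune subunits had nearly equal readings on both arrays. Psmb6, the beta 1 subunit that Psmb9 replaces, read 1429 and 1394 (log2 ratio −0.036, local SD 0.16). Psmb5, the beta 5 subunit, read 1662 and 1583 (−0.070, local SD 0.15). Psmb7, the beta 2 subunit, read 3833 and 3714 (−0.046, local SD 0.12). All 3 lay within 1 local SD of 0 and of the median of genes of like signal.

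The difference between the log2 ratios of an immune gene and its counterpart does not depend on a scaling factor common to an array. It was 1.19 for Psmb9 minus Psmb6, which is a 2.28-fold shift of the pair towards the immune gene. It was 0.80 for Psmb8 minus Psmb5 (1.75-fold) and 0.32 for Psmb10 minus Psmb7 (1.24-fold). For PA28 it was 0.57 for Psme1 minus its paralog Psme3 (1.48-fold), each by its brightest probeset. A further probeset of Psme3 gave −0.43, so the size of this difference depends on the probeset. The order of the pairs is thus beta 1, beta 5, beta 2. Signals of different probesets were not set against each other, so these shifts say nothing of which subunit of a pair was more abundant.

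**Figure D3:**
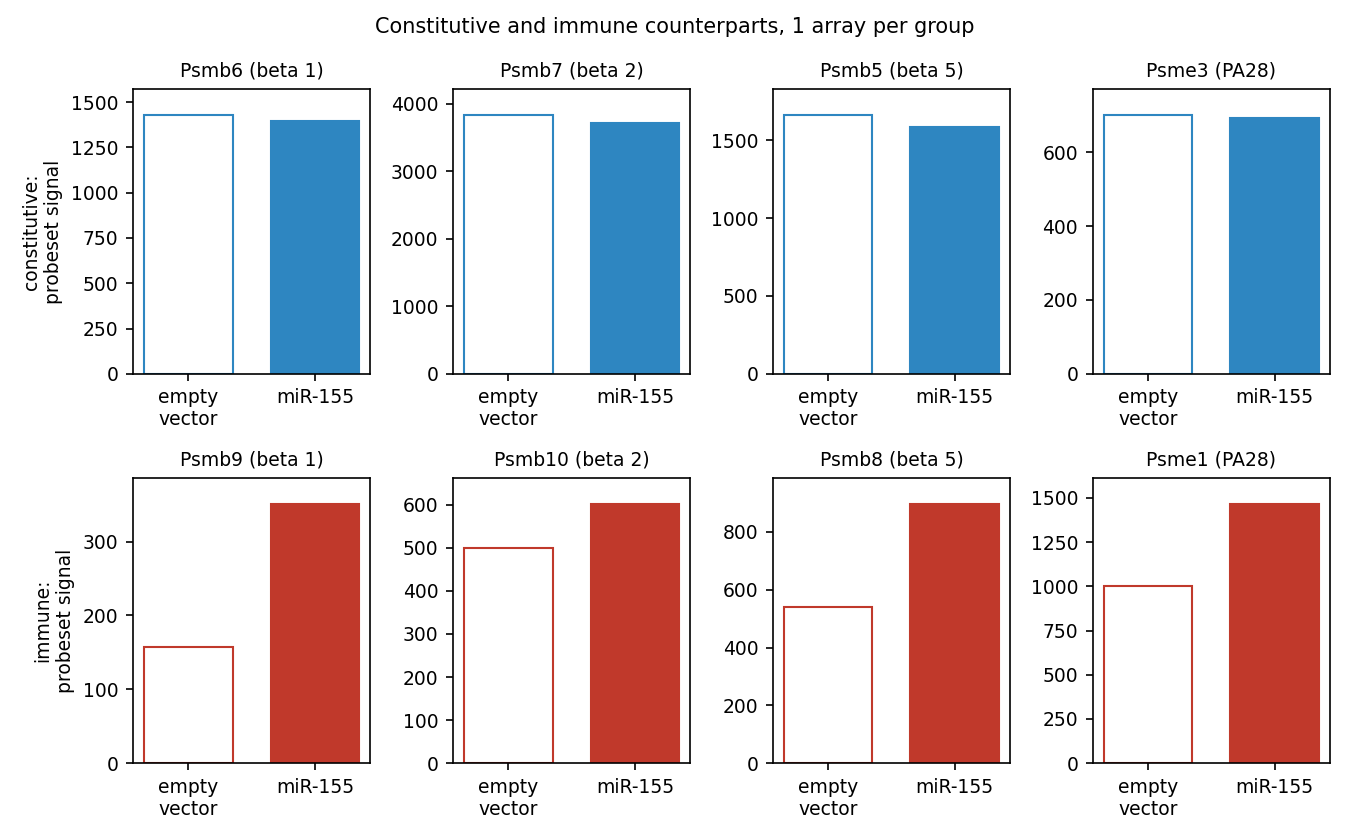
Signal on the empty-vector array (open bars) and the miR-155 array (filled bars) for constitutive genes (upper row, blue) and their immune counterparts (lower row, red; for Psme1 the upper gene is its paralog Psme3), each panel on its own linear axis from 0, 1 array per bar. The upper bars are nearly level, while Psmb9 goes from 158 to 351 and Psmb8 from 539 to 896; heights are not comparable between panels.

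The 20S alpha subunits form the outer rings and the gate of the core. All 8 were kept, with a median log2 ratio of 0.029 and a range of −0.18 to 0.22. Psma6 was the highest, at 3057 and 3549 (0.22, local SD 0.13), but its further probesets gave 0.050 and 0.34. Psma4 followed at 2038 and 2114 (0.053). The lowest were Psma2, at 2556 and 2420 (−0.079), and Psma8, the testis counterpart of Psma7, at 144 and 127 (−0.18, local SD 0.31). Psma8 was the dimmest member kept, and cross-hybridisation from related subunits was not tested.

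Of the 8 other 20S beta genes, 7 were kept, with a median of −0.046. Psmb4 was the highest, at 3662 and 4116 (0.17, local SD 0.12), although its further probeset gave −0.010. Psmb2 read 701 and 748 (0.094). The lowest were Psmb1, at 1924 and 1733 (−0.15, local SD 0.15), and Psmb3, at 2052 and 1935 (−0.085). The further probesets of Psmb1, far dimmer, gave 0.078 and −0.090. The member left out by the filter was Psmb11, the catalytic subunit of thymus epithelium, which read 13.4 and 2.46. Both readings are below the signal floor of 25.8, so no ratio is given.

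The 6 ATPases of the 19S cap form the ring that unfolds substrates. All 6 had a ratio below 0 as deposited, as did 5275 of all 9097 genes kept, with a median of −0.11. A further probeset of Psmc4, named after its value was seen, went the other way, at 856 and 882 (0.043, against −0.16 for the brightest). Psmc1 was the lowest, at 1001 and 870 (−0.20, local SD 0.17), followed by Psmc5, at 838 and 740 (−0.18). The highest were Psmc2, at 2589 and 2537 (−0.029), and Psmc3, at 1764 and 1708 (−0.046). The direction depended on the scaling: after centring the median of all probesets on 0, 3 of the 6 were above 0, and after quantile normalization 2 were.

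The 19S non-ATPases include ubiquitin receptors, the scaffold of the lid and the deubiquitinase Psmd14. Their 11 ratios had a median of −0.034. Psmd8, a lid subunit, was the highest of all other members, at 1410 and 1725 (1.22-fold higher, log2 ratio 0.29, local SD 0.15). The next, Psmd11, read 2578 and 2602 (0.013), and its 4 further probesets above the floor gave −0.17 to −0.050. The lowest were Psmd3, at 464 and 395 (−0.23, local SD 0.19), and Psmd12, at 1525 and 1388 (−0.14). Psmd8 thus stood apart from the other 10, which lay between −0.23 and 0.013.

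Among the regulators, Psme4, which encodes the activator PA200, had the lowest ratio of the family. It read 571 and 417, a 1.37-fold lower signal (−0.46, local SD 0.20). The 2 further probesets above the floor gave −0.42 and −0.29, so 3 probesets read lower. Psme3, the nuclear PA28 gamma, read 701 and 692 (−0.018), but its further probeset read 260 and 193 (−0.43). Psmf1, the inhibitor PI31, read 281 and 277 (−0.021), and its further probesets gave −0.044 and −0.0023. The PA28 and PA200 activators therefore differed in direction, with Psme1 higher, Psme4 lower and Psme3 uncertain between its probesets.

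The chaperones that assemble the proteasome were more spread than the subunits, but also dimmer. Their median signal was 461, against 1782 for the 20S and 19S subunits without the immune ones. None lay farther from the median of genes of like signal than Psmg2, at 1.80 local SDs. Of 7, Psmg2, at 805 and 953 (0.24, local SD 0.17), and Psmd10, at 426 and 498 (0.23), were the highest. Psmg3, at 437 and 350 (−0.32, local SD 0.19), and Psmg4, at 484 and 439 (−0.14), were the lowest. The further probeset of Psmg2 gave 0.067. Psmg1 and Psmg2 form one chaperone pair and were at 0.17 and 0.24, while Psmg3 and Psmg4 form the other and were at −0.32 and −0.14; these pairs were set side by side after their values were seen.

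The other members lay close together. Their ratios ran from −0.46 to 0.29, 39 of 42 were within 1.2-fold, and the robust SD of the ratio was 0.082. Of all 9097 genes kept, 5793 were within 1.2-fold. In the signal range of the other members 4035 of 5522 genes were, with a robust SD of 0.21. At signals of at least 1309, the lower quartile of the 20S and 19S subunits without the immune ones, 24 of these members had a robust SD of 0.062, and all 750 genes kept there 0.13. Of the 750 genes, 661 were within 1.2-fold, as were 23 of the 24 members. The 27 further probesets of other members that reached the floor ran from −0.43 to 0.34. Their range was not set against that of further probesets of all genes. The sign of the median of the other members depended on the scaling: it was −0.041 as deposited, 0.037 after centring all probesets on a median of 0 and 0.013 after quantile normalization.

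Proteasome partners without a Psm symbol are ubiquitin shuttles, deubiquitinases, assembly factors and regulators of proteasome genes. Of 25 listed, 19 were on the array with a single-symbol probeset and all 19 were kept. As deposited, 0 of the 19 were 1.5-fold higher and 0 as much lower, against 5.32% and 5.99% of all genes kept, and the median was −0.090. The lowest were shuttle factors: Ubqln1, at 1073 and 791 (−0.44, local SD 0.17), Rad23b, at 1375 and 1052 (−0.39), and Ubqln2, at 791 and 630 (−0.33). The highest were Fbxo7, an F-box protein that binds PI31, at 101 and 147 (0.54, local SD 0.31), Nfe2l1, whose product NRF1 activates proteasome genes, at 142 and 179 (0.34, local SD 0.27), and the ubiquitin ligase Ube3c, at 184 and 212 (0.20). After that centring, 1 partner, Fbxo7, passed 1.5-fold.

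Genes of the interferon response and of MHC class I presentation are linked to the immune subunits by regulation or function. Of 15 listed, 14 were kept, and 13 of these had both readings at or above the signal floor. Of the 13, 11 had a ratio above 0, as did 3822 of all 9097 genes kept. At least 1.5-fold higher were 2 of the 13 (5.32% of all genes kept) and 0 were as much lower (5.99%). All genes kept include 332 with 1 reading below the floor, so the filters differ. Over all 14 kept, 3 were at least 1.5-fold higher and 0 as much lower. The median of the 13 was 0.38. Tap1, a subunit of the peptide transporter, read 85.9 and 166 (0.95, local SD 0.32), and Nlrc5, the class I transactivator, 42.7 and 68.3 (0.68, local SD 0.45). The gene outside the 13 was Stat2, which read 20.9 and 54.1, the first below the floor. The lowest were the kinases Jak2, at 103 and 95.3 (−0.11), and Jak1, at 450 and 441 (−0.028), and the receptor chain Ifngr1, at 127 and 141 (0.15).

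Among protein-coding genes of the RefSeq table, Psmb9, Tap1, Psmb8 and Tap2 follow each other on chromosome 17, between H2-DMb1 and H2-Ob. The promoter windows of Psmb9 and Tap1 overlap by 275 bases, so the window printed above for Psmb9 is nearly all of the window of Tap1 read on the other strand. These neighbours had log2 ratios of 1.15, 0.95, 0.73 and, for Tap2, 0.43 (69.8 and 94.1, local SD 0.36). All 4 were above 0, as were 3822 of all 9097 genes kept. Psmb9, Tap1 and Psmb8 had already been reported above as higher, so the 4 are not a fresh look at the locus. The ratios of H2-DMb1 and H2-Ob are not given here. Tap2 was named for its place in the locus after its value was seen.

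**Figure D4:**
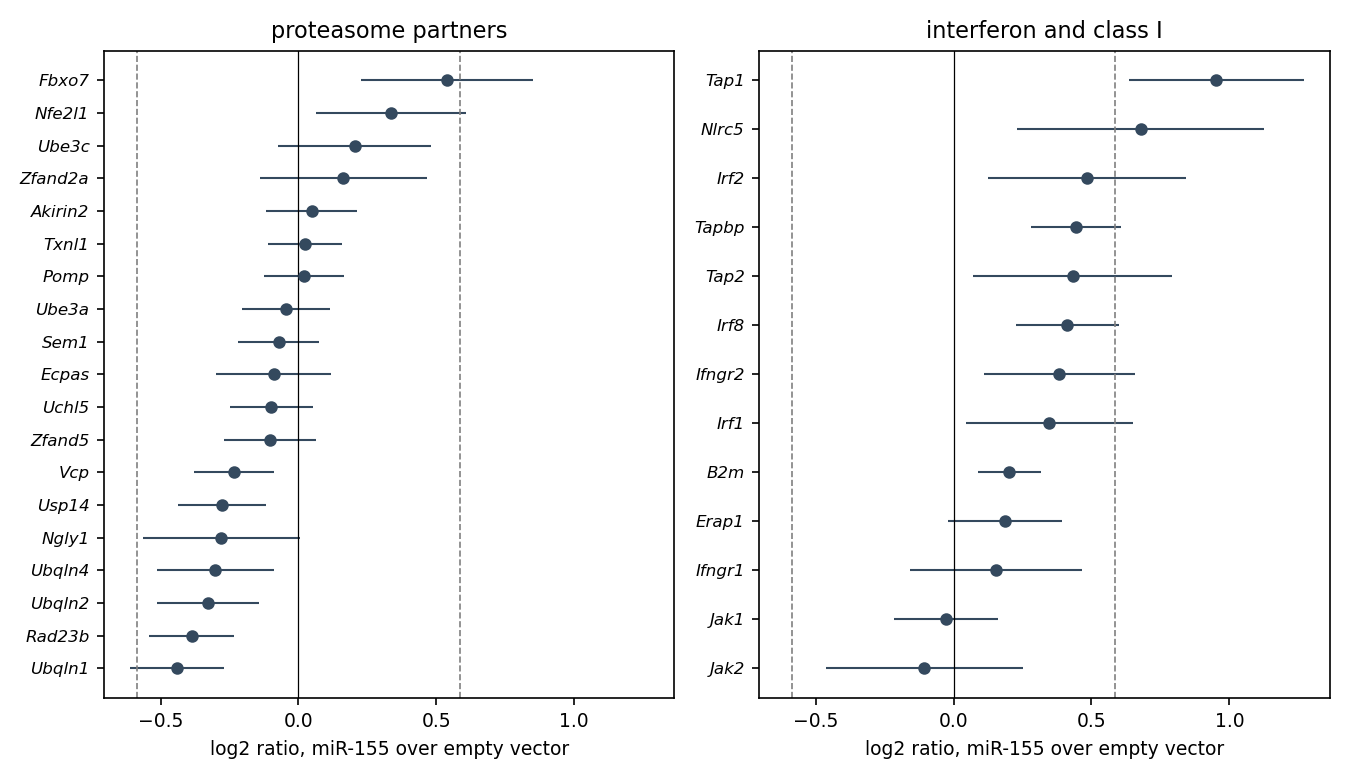
Log2 ratio of the miR-155 over the empty-vector array for 19 proteasome partners (left) and 13 interferon and class I genes (right), with 1 local SD to each side; dashed lines mark 1.5-fold. Tap1 (0.95) and Nlrc5 (0.68) lie beyond the right dashed line and no gene lies beyond the left one; Stat2 is not drawn because 1 reading is below the signal floor.

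The labelled cell type was checked against its markers. All 8 macrophage markers were kept, with signals of 147 to 6058 on the empty-vector array and 220 to 5095 on the miR-155 array, and their summed signals were 19612 and 19680. The near-equal sums hide opposite differences in bright markers: Cd14 read 1728 and 4145, Csf1r 6040 and 5095 and Lyz2 6058 and 4731. At least 1.5-fold higher were 2 of the 8, Cd14 and Fcgr1 (716 and 1130), against 5.32% of all genes kept. As much lower were 2, Adgre1, the F4/80 antigen (472 and 289), and Spi1 (1067 and 700), against 5.99%. The part of such differences in the immune proteasome ratios was not tested. The 8 measured markers of B, T or NK, stromal and erythroid cells were all below the floor, at most 16.6 and 24.1, with summed signals of 56.5 and 67.1. The median signal of the 45101 probesets was 15.4 and 14.1.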

How the data were processed

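Each array has 1 column of deposited probeset intensities, on a linear scale; per the labels' protocols, biotin-labelled RNA was processed by Affymetrix procedures. Not given in the sources used here is how the authors summarised, corrected and scaled the probes. Probesets were named through the platform annotation and Entrez identifiers of the RefSeq table (GRCm38.p6; 0 symbols changed); 34945 had 1 symbol, 932 several and 9160 none, beside 64 controls. Symbols with letters after the number (Psmc3ip, Psme3ip1) were not members. Ratios used the signals as deposited, with no offset. The floor of 25.8 is the filter's lowest geometric mean signal. With 1 array per group there was no test. Named were the immune members and counterparts, the 2 highest and lowest of each class, members and linked genes beyond 1.5-fold and the 3 highest and lowest linked genes. Members and lists were chosen with earlier results of these data known. Promoters matched 39 of 47 members. The steps were tested on simulated data. Python 3.11.15, scipy 1.17.1, numpy 2.4.6, pandas 2.3.3 and matplotlib 3.10.9 were used. The number of arrays limits the precision.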

Additional observations from a re-analysis of the deposited data

Results flagged for a closer look

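A probeset left out of the counts because it is annotated to both Psme2 and Psme2b read 1131 without and 1698 with miR-155, a log2 ratio of 0.585. It is given because it lies outside the measured members and reads higher than in the empty-vector control. Which of the genes it measured was not tested.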

How the results depend on the processing

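The immune, other and partner medians and the immune minus other difference moved by less than 0.1 under all 8 alternatives. The ratios of the immune members kept their direction (Psmb9 0.95 to 1.23, Psmb8 0.67 to 0.81, Psme1 0.53 to 0.63, Psmb10 0.25 to 0.35). Part of this was fixed beforehand. Dropping _x_at and _s_at probesets, changing the filter or adding symbols with letters left the same immune probesets, and their median stayed at 0.64. Centring shifts every ratio by 0.078, which is less than 0.1, and cannot change the difference. Psmb9 was below 2-fold only with an offset of 50. With the mean of all probesets, dim ones included, 5 members were at least 1.5-fold higher (also Psmc1, Psmd7 and Psmg4) and 3 lower (Psmd4, Psme3 and Psme4), against 7.65% and 10% of all genes there. With no filter 1 was lower, Psmb11, with both readings below the floor, against 21.2% of all 18193 genes. That mean also turned Psma6 to −0.54 and Psmg2 to −0.25. Psma6 was at 0.050 without probesets ending in _x_at and _s_at. No paired analysis was possible because both groups hold only replicate 1. For the same reason no array could be left out, and dim probesets limit every ratio near the floor.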
